A study of Mus musculus with 8 samples.

Results

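The 48 genes described here act at mitotic entry, on the spindle and kinetochore, and in cell division. They were chosen by name from knowledge of the G2 and M phases, not by a measured value. Earlier results of these data were known when they were chosen. All 48 symbols were found once among the 56748 genes of the table, and all 48 passed the filter on low values (2 or more libraries with FPKM of 1 or more), which 11818 genes passed. FPKM gives fragments per kilobase of gene length, scaled to library size, so levels can be compared between genes. The cells were 32D, a mouse myeloid line that depends on interleukin-3 (IL-3), and every group carried transduced murine Jak2. Jak2WT and Jak2V617F name the transduced kinase, without or with the activating mutation of myeloproliferative neoplasms. GLUT1/3 WT clones kept both glucose transporter genes, and in GLUT1/3 dKO clones Slc2a1 (GLUT1) and Slc2a3 (GLUT3) had been disrupted with CRISPR-Cas9. Each of the 4 groups had 2 libraries, clones 1 and 3, and every clone had been grown from a single cell. All cells spent 24 h in pyruvate-free RPMI-1640 holding serum, 2 ng/ml IL-3, 1 mM glutamine and 5 mM glucose before polyadenylated RNA was sequenced. The p-values measure the spread between these clones. An exact permutation test of 2 against 2 clones has 0.33 as its smallest two-sided p, and each gene was tested in a limma fit over all genes.

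A cell enters mitosis when cyclin B and CDK1 become active together, helped by Polo-like and Aurora kinases. The checkpoint proteins then hold the anaphase-promoting complex until every kinetochore is attached to the spindle, after which securin and cyclin B are destroyed and the cell divides. Most genes of this group are transcribed from late S phase to mitosis through promoters that bind MuvB with B-MYB and FOXM1 at the cell cycle genes homology region (CHR), often near CCAAT boxes bound by NF-Y. In RNA from a whole culture, fewer cells in G2 and mitosis cannot be told apart from less of these RNAs per cell.

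Recovered reads on genes ranged from 16846011 to 48884329 per library, and members had between 640 and 66913 reads. The knocked-out transporters were lower in every dKO clone. Slc2a1 stood at 44.7 to 64.0 FPKM in GLUT1/3 WT clones and at 9.17 to 17.3 in dKO clones, and Slc2a3 at 91.9 to 198 against 16.0 to 49.5. Edited alleles can still be transcribed, so these RNA levels do not measure the loss of protein. Of 10 genes fixed as markers of a myeloblast-like line, 5 had an FPKM of at least 1 in every library. Mpo, Elane and Ctsg stayed at or below 0.197 FPKM, and Cebpa and Kit were listed at 0 in all 8 libraries. The summed FPKM of the 10 genes was 247 and 219 in Jak2WT GLUT1/3 WT, 197 and 160 in Jak2WT dKO, 196 and 201 in Jak2V617F GLUT1/3 WT, and 89.1 and 92.0 in Jak2V617F dKO, where 3 of the 5 tested were called lower on dKO. The summed FPKM of 9 erythroid markers was 94 and 112 in Jak2WT GLUT1/3 WT, 246 and 291 in Jak2WT dKO, 910 and 553 in Jak2V617F GLUT1/3 WT, and 4679 and 2582 in Jak2V617F dKO. For 4 megakaryocyte markers the sums were 63.7 and 63.2, 84.5 and 90.2, 177 and 189, and 222 and 183 in the same order of groups. These 3 sums moved with the groups, and their part in the differences of the mitotic genes was not tested. The 4 lymphoid markers summed to at most 0.708 FPKM in a library, and 4 fibroblast or endothelial markers to between 28.5 and 36.7. Of these last 4, only Pecam1 passed the filter on low values, and Col1a1, Col1a2 and Cdh5 did not.

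**Figure D1:**
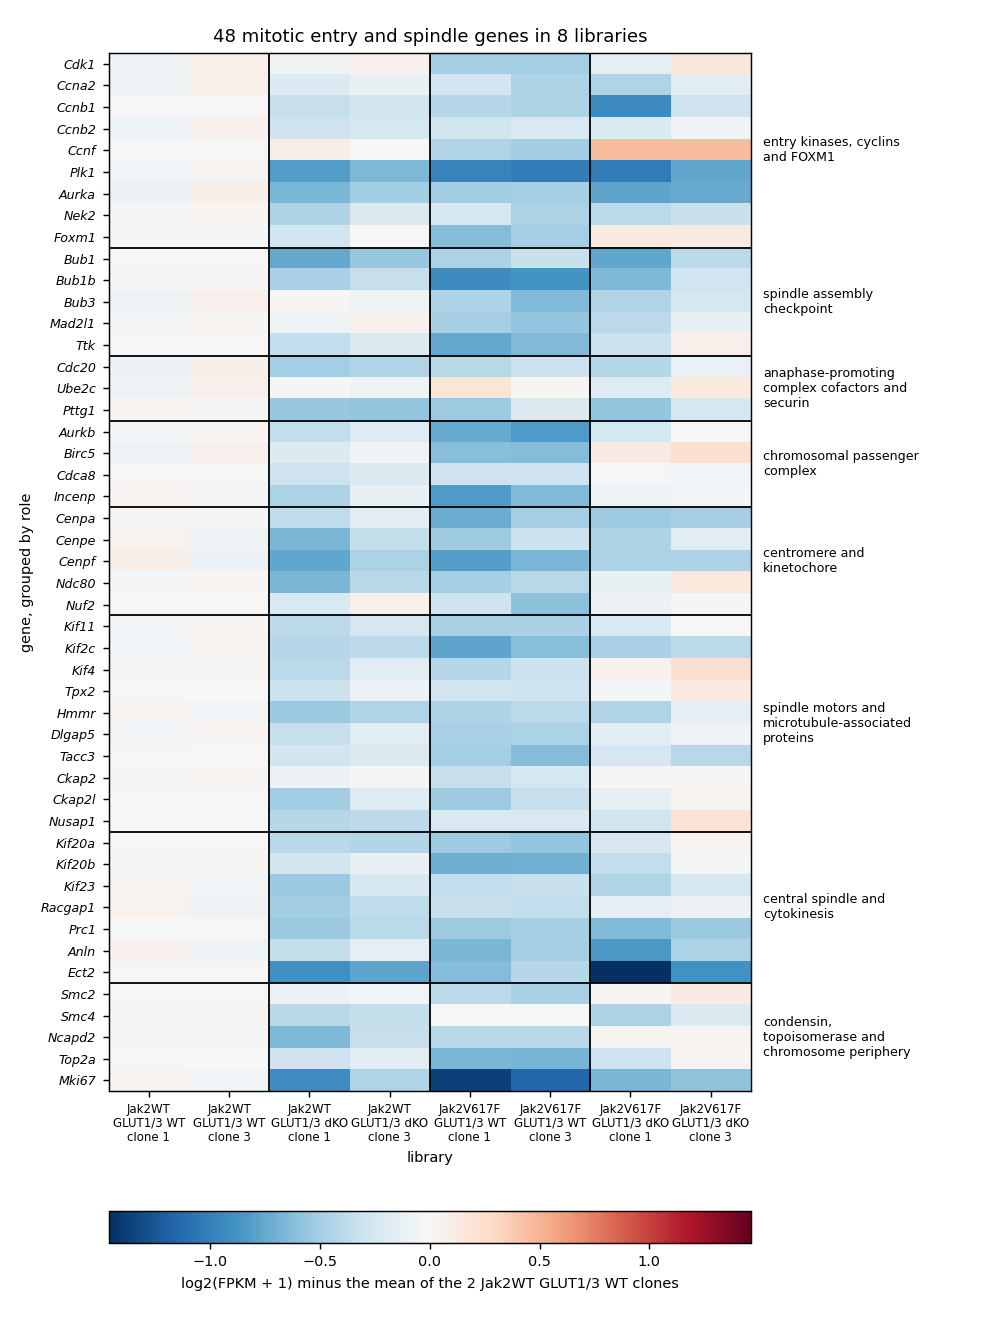
Level of each of the 48 genes (rows, by role) in each of the 8 libraries (columns), as log2(FPKM + 1) minus the mean of the 2 Jak2WT GLUT1/3 WT clones, with blue below and red above that mean. Most rows are bluest in the Jak2V617F GLUT1/3 WT clones and paler in the Jak2V617F dKO clones, and Ect2 is darkest in Jak2V617F dKO clone 1.

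The mitotic genes were highest as a group in Jak2WT GLUT1/3 WT cells and lowest in Jak2V617F GLUT1/3 WT cells. The group mean was highest in Jak2WT GLUT1/3 WT for 36 of the 48 members, in Jak2V617F dKO for 10 and in Jak2V617F GLUT1/3 WT for 2. It was lowest in Jak2V617F GLUT1/3 WT for 29, in Jak2WT dKO for 13 and in Jak2V617F dKO for 6. Set against the Jak2WT GLUT1/3 WT mean, the median member stood at 80.8% in Jak2WT dKO, 70.5% in Jak2V617F GLUT1/3 WT and 89.5% in Jak2V617F dKO. These ranks and medians are a description of the groups, with no test. The levels spanned a wide range, from 6.07 FPKM for Ndc80 in Jak2WT dKO clone 1 to 170.4 for Top2a in Jak2V617F dKO clone 3.

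Promoter sequences of the members shared a feature that their choice by function did not use. RefSeq promoter windows of 300 bases (250 before to 50 after the start, assembly GRCm38.p6) were matched by symbol for 40 of the 48 members and gave 43 windows. No window was matched for Dlgap5, Smc4, Kif20a, Ccna2, Aurkb, Foxm1, Tpx2 and Incenp. On either strand, a CHR (TTTGAA or TTCGAA) was present in 34 of 43 windows (79.1%), against 19.2% of all 32851 windows in the table. CCAAT was present in 76.7% against 37.4%, and both motifs in 69.8% against 7.52%. From 100 bases before the start to its 50 after, a CHR was found in 69.8% of the members' windows and 8.59% of all. Among the other lists, a CHR was present in 58.0% of 50 windows of further spindle, kinetochore and cytokinesis genes, 47.1% of 17 of other condensin and cohesin genes, and 29.4% of 17 of MuvB, B-MYB, NF-Y and pocket protein genes. It was present in 22.2% of 9 windows of the CDK1 switch and 21.1% of 19 of the anaphase-promoting complex. Of the 42 S phase genes, 30 had windows, and the 33 windows held a CHR in 18.2% and CCAAT in 66.7%. In the members' windows, 1 match of one motif shared a base with a match of another, in Cdca8, and Bub3, Ect2 and Prc1 each had 2 overlapping windows. The 150 bases from 100 before to 50 after the start are shown for 6 members whose levels moved in different ways below, on the strand of the gene, with CHR and CCAAT matches of either strand in capitals.
Ccnf, chr17:24251360-24251509, reverse strand: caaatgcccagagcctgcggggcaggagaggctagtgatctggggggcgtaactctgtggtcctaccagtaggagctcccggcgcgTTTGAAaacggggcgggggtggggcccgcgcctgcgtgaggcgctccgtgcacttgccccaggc
Cdk1, chr10:69352863-69353012, reverse strand: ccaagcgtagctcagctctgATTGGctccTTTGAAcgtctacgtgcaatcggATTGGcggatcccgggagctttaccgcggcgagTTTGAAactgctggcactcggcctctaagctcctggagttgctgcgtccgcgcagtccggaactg
Ccnb2, chr9:70421505-70421654, reverse strand: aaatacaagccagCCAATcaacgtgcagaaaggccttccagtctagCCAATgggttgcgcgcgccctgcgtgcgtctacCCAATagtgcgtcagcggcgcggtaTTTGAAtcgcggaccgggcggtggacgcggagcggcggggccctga
Plk1, chr7:122159335-122159484, forward strand: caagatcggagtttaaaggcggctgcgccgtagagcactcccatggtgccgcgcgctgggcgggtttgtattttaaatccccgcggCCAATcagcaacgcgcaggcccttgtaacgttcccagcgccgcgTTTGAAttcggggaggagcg
Ect2, chr3:27153805-27153954, reverse strand: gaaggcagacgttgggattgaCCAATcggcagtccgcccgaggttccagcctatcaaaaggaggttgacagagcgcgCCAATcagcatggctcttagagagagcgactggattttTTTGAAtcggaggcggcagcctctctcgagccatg
Aurka, chr2:172370521-172370670, reverse strand: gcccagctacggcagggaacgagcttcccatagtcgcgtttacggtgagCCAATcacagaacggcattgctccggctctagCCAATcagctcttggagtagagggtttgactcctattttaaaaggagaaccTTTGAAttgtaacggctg
Ccnf, the member with the largest rise on dKO in Jak2V617F cells, and Ect2, the one with the largest fall, both carried the CHR. So did Aurka and Plk1, whose dKO difference in Jak2V617F cells did not pass the test. A letter match is not a bound site, and these windows are in another assembly than the expression table (mm39), so no coordinates were carried over.

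GLUT1/3 loss in Jak2V617F cells went with higher levels of 21 of the 48 members and lower levels of 2, Ect2 and Smc4 (limma, adjusted p under 0.05 over all 11818 genes). The other 25 did not pass the test. Over all genes tested, 13.7% were called higher and 16.2% lower, so the share of members called higher, 43.8%, lay above that of genes at large. The median log2 difference over the members was 0.28 (range -0.65 to 0.93), against -0.019 over all genes. Both dKO clones lay above both GLUT1/3 WT clones for 30 members and below them for 4, where 29.9% and 34.4% of all genes did so. Leaving out Jak2V617F GLUT1/3 WT clone 1 lowered the count called higher to 7, leaving out clone 3 of that group gave 12, and leaving out Jak2V617F dKO clone 3 gave 12, as the calls higher over all genes fell from 1614 to 1114, 1079 and 1252. The count called lower was 0 without any 1 of 7 libraries and 3 without Jak2V617F dKO clone 3, and the median stayed between 0.24 and 0.31. Ccnf, Foxm1, Aurkb, Birc5, Incenp and Smc2 were called in this comparison under every one of the alternatives tried. A scaling that gave all libraries the same total moved the calls over all genes from 1614 higher and 1919 lower to 2201 and 1443, and those of the members to 27 and 0.

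In Jak2WT cells the same knockout went with lower levels of 16 members and a higher level of none. Over all genes tested, 7.62% were called higher and 6.06% lower. At an unadjusted p under 0.05 there were 30 members lower and 0 higher. All genes were not counted at that unadjusted threshold, here or below. Voom on recovered reads called 23 members lower and 0 higher. Over all genes voom called 1201 lower and 1252 higher, where limma called 716 and 901. The median log2 difference was -0.30 (range -0.84 to 0.046), against 0.0082 over all genes. For 39 members each dKO clone was lower than either GLUT1/3 WT clone, and for 0 each was higher, where 32.0% and 34.1% of all genes were so placed. The count of 16 called lower was 0 without Jak2WT GLUT1/3 WT clone 1, 0 without clone 3 of that group, 0 without Jak2WT dKO clone 1 and 5 without Jak2WT dKO clone 3, while the median stayed between -0.39 and -0.21. In these 4 fits the genes called lower over the whole table fell from 716 to 36, 54, 94 and 98. With libraries scaled to the same total the calls over all genes went from 901 higher and 716 lower to 701 and 1380, and those of the members to 0 and 23.

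Among GLUT1/3 WT clones, 35 members were lower in Jak2V617F than in Jak2WT and none was higher. Over all genes tested, 15.3% were called higher and 14.9% lower. The median log2 difference was -0.47 (range -1.26 to 0.10), against 0.0076 over all genes. Both Jak2V617F clones lay below both Jak2WT clones for 46 members and above them for 0, where 33.6% and 35.8% of all genes did so. At an unadjusted p under 0.05 there were 45 lower and 0 higher, and voom called 44 lower and 0 higher. Voom calls over all genes were 1992 lower and 1907 higher, against 1765 and 1812 in limma. Without Jak2WT GLUT1/3 WT clone 1 the count was 20, and without clone 3 of that group it was 18, as the calls lower over all genes fell to 881 and 746. Scaling to the same total moved the median of all genes to -0.12 here and the calls over all genes from 1812 higher and 1765 lower to 1214 and 2939, with 45 members lower, 0 higher and a members' median of -0.61.

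After GLUT1/3 loss the backgrounds differed less at these genes. Calls over all genes fell as well, from 15.3% higher and 14.9% lower among GLUT1/3 WT clones to 7.12% and 9.96%. Among dKO clones, 5 members (Ccnf, Ndc80, Kif4, Racgap1 and Ncapd2) were higher in Jak2V617F and 0 were lower. The share of members called higher, 10.4%, was near the 7.12% of all genes. At an unadjusted p under 0.05 there were 11 higher and 2 lower, and voom called 8 higher and 1 lower. With voom, 1236 of all genes were higher and 1422 lower, against 842 and 1177 in limma. The median log2 difference was 0.11 (range -0.41 to 0.56), against -0.023 over all genes, and both clones were apart upwards for 19 members and downwards for 5, where 27.5% and 33.1% of all genes were. The count of 5 fell to 1 without Jak2WT dKO clone 1, to 2 without Jak2V617F dKO clone 3 and to 3 without Jak2WT dKO clone 3 or either Jak2WT GLUT1/3 WT clone. Without Jak2V617F dKO clone 3 the count called lower was 4 and the median 0.0022. Both background comparisons share their libraries with the dKO comparisons, so the values of a member in all 4 are not independent.

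**Figure D2:**
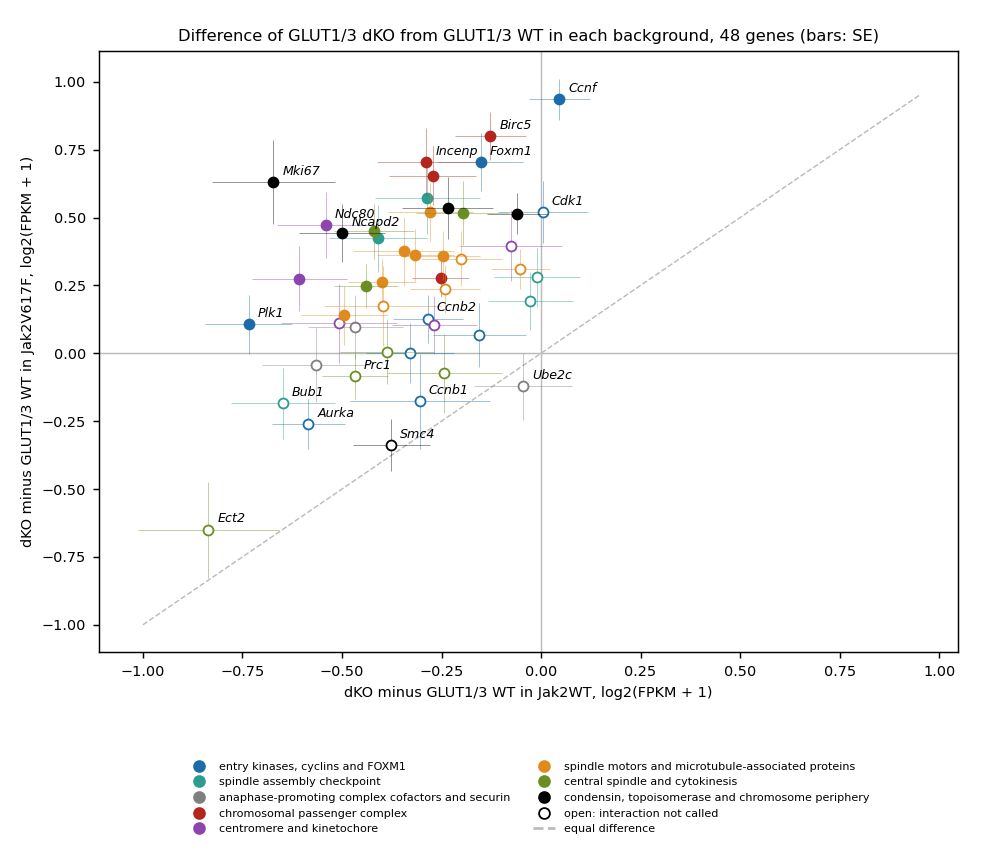
Difference of GLUT1/3 dKO from GLUT1/3 WT in Jak2WT (x axis) and in Jak2V617F (y axis) for each of the 48 genes, as log2(FPKM + 1) with standard errors as bars, coloured by role. Filled points are the 24 genes with a called interaction, all above the dashed line of equal difference, and 37 genes lie at upper left, with a positive difference in Jak2V617F and a negative one in Jak2WT.

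The dKO difference itself was compared between the backgrounds with the interaction term, which is the difference in Jak2V617F minus that in Jak2WT. It was positive and called for 24 members and negative and called for 0, against 4.72% and 5.91% of all genes. At an unadjusted p under 0.05 there were 39 positive and 0 negative, and voom called 31 positive and 0 negative. Voom called 919 of all genes positive and 895 negative, against 558 and 698 in limma. The median interaction was 0.57 (range -0.076 to 1.3), against -0.039 over all genes. The fitted difference was positive in Jak2V617F and negative in Jak2WT for 37 members, negative in both for 9 and positive in both for Cdk1 and Ccnf, whose small differences in Jak2WT turned negative with libraries scaled to the same total. Of the 21 members called higher in Jak2V617F, Ndc80, Ncapd2, Kif20a and Mki67 were also called lower in Jak2WT. The count of 24 fell to 0 without either Jak2WT GLUT1/3 WT clone, to 1 without Jak2WT dKO clone 1, to 14 without Jak2WT dKO clone 3, to 4 without Jak2V617F GLUT1/3 WT clone 1 and to 13 without clone 3 of that group. The median stayed between 0.50 and 0.69 in those fits. Calls over all genes fell too, to 27 positive and 41 negative without Jak2WT GLUT1/3 WT clone 1, 2 and 3 without clone 3 of that group, 27 and 36 without Jak2WT dKO clone 1, 254 and 280 without Jak2WT dKO clone 3, 202 and 158 without Jak2V617F GLUT1/3 WT clone 1, and 329 and 419 without clone 3. Scaling to the same total moved the median of all genes to 0.12, the calls over all genes from 558 positive and 698 negative to 1210 and 391, and those of the members to 32 and 0.

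The members are described by role from here on, and the roles hold few genes, so their counts are to be read against all genes tested. Of all genes, 13.7% were called higher and 16.2% lower on dKO in Jak2V617F, 6.06% lower on dKO in Jak2WT and 14.9% lower in Jak2V617F among GLUT1/3 WT clones. Of the 9 entry kinases, cyclins and FOXM1, 3 rose on dKO in Jak2V617F cells, 2 fell on dKO in Jak2WT cells and 6 were lower in Jak2V617F than in Jak2WT among GLUT1/3 WT clones. Ccnf encodes cyclin F, the substrate receptor of an SCF ubiquitin ligase that limits CP110 and RRM2 in G2. The FPKM of Ccnf in clones 1 and 3 was 10.7 and 10.7 in Jak2WT GLUT1/3 WT, 11.5 and 10.7 in Jak2WT dKO, 7.66 and 7.22 in Jak2V617F GLUT1/3 WT, and 15.2 and 15.1 in Jak2V617F dKO. Its Jak2V617F dKO clones were above the 6 other clones. Ccnf rose by 0.93 ± 0.076 (log2, SE; adjusted p = 0.000482), gave 0.046 ± 0.076 (adjusted p = 0.724) in Jak2WT, and had an interaction of 0.89 ± 0.11 (adjusted p = 0.00935). Foxm1 encodes the forkhead factor that drives G2 and M phase transcription. For Foxm1, clones 1 and 3 had 12.5 and 12.1 FPKM in Jak2WT GLUT1/3 WT, 9.83 and 12.2 in Jak2WT dKO, 7.55 and 8.44 in Jak2V617F GLUT1/3 WT, and 13.7 and 13.6 in Jak2V617F dKO. Foxm1 rose by 0.70 ± 0.11 (log2, SE; adjusted p = 0.00371) in Jak2V617F and was lower in Jak2V617F than in Jak2WT among GLUT1/3 WT clones (log2 difference -0.56 ± 0.11 SE, adjusted p = 0.00842). Cdk1 encodes the mitotic kinase itself. Cdk1 stood at 25.5 and 28.3 FPKM in the Jak2WT GLUT1/3 WT clones, 25.8 and 28.1 in Jak2WT dKO, 18.7 and 18.7 in Jak2V617F GLUT1/3 WT, and 24.5 and 30.2 in Jak2V617F dKO. The Jak2V617F GLUT1/3 WT clones were apart from the 6 others, at the lowest level. Cdk1 rose by 0.52 ± 0.11 (log2, SE; adjusted p = 0.0138) on dKO in Jak2V617F, while in Jak2WT the difference was 0.0041 ± 0.11 (adjusted p = 0.986).

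The cyclins that bind CDK1 did not pass the test on dKO in either background. Ccnb1 encodes cyclin B1, and its clones had 59.2 and 59.5 FPKM in Jak2WT GLUT1/3 WT, 46.6 and 49.1 in Jak2WT dKO, 44.1 and 43.0 in Jak2V617F GLUT1/3 WT, and 30.8 and 47.8 in Jak2V617F dKO. Its dKO difference was -0.18 ± 0.18 (adjusted p = 0.483) in Jak2V617F, where clone 1 fell below both GLUT1/3 WT clones and clone 3 lay above them. Ccnb2 (cyclin B2) gave 0.13 ± 0.089 (adjusted p = 0.312) and Ccna2 (cyclin A2) 0.067 ± 0.12 (adjusted p = 0.704) in the same comparison. None of Ccna2, Ccnb1 and Ccnb2 passed the test in any comparison. Among GLUT1/3 WT clones, all 3 had both Jak2V617F clones below both Jak2WT clones, with adjusted p of 0.0538, 0.1005 and 0.0626 in limma, and each was called there in 5 of 19 fits. Plk1, the Polo-like kinase of mitotic entry, and Aurka, the centrosomal Aurora kinase, had another pattern. The FPKM of Plk1 in clones 1 and 3 was 60.1 and 64.0 in Jak2WT GLUT1/3 WT, 34.8 and 39.1 in Jak2WT dKO, 31.0 and 30.2 in Jak2V617F GLUT1/3 WT, and 30.0 and 36.4 in Jak2V617F dKO. For Aurka, clones 1 and 3 had 35.2 and 39.6 FPKM in Jak2WT GLUT1/3 WT, 23.2 and 26.0 in Jak2WT dKO, 25.9 and 26.4 in Jak2V617F GLUT1/3 WT, and 21.4 and 22 in Jak2V617F dKO. In both genes the Jak2WT GLUT1/3 WT clones were apart from the 6 others, at the highest level. Plk1 was lower in Jak2V617F among GLUT1/3 WT clones (log2 difference -1.0 ± 0.11 SE, adjusted p = 0.00129), fell on dKO in Jak2WT (log2 difference -0.73 ± 0.11 SE, adjusted p = 0.00952), and gave 0.11 ± 0.11 (adjusted p = 0.495) on dKO in Jak2V617F. Aurka fell on dKO in Jak2WT (log2 difference -0.58 ± 0.091 SE, adjusted p = 0.0106), and its difference in Jak2V617F was -0.26 ± 0.091 (adjusted p = 0.0685). Nek2, a centrosome kinase, was lower in Jak2V617F than in Jak2WT among GLUT1/3 WT clones (log2 difference -0.36 ± 0.11 SE, adjusted p = 0.0465) and passed the test in no other comparison.

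**Figure D3:**
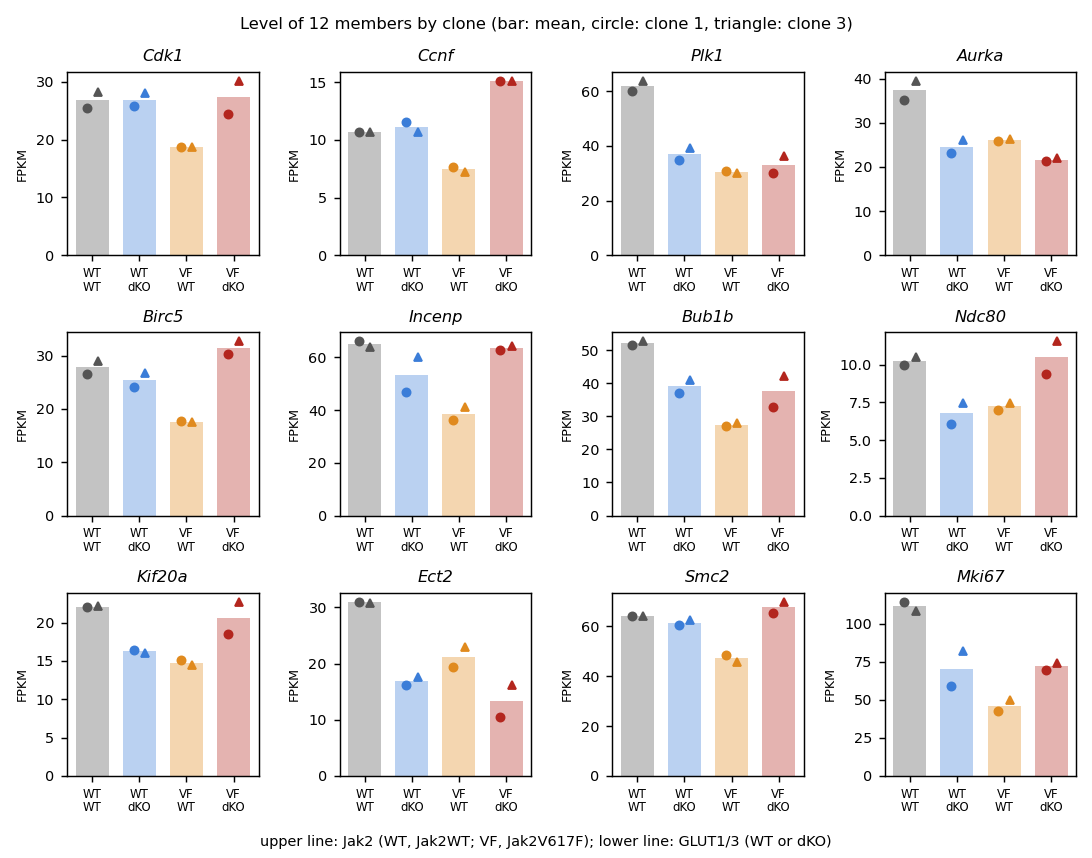
FPKM of 12 of the genes in each clone (circle, clone 1; triangle, clone 3) with the group mean as a bar, on axes that start at 0. WT WT and WT dKO are the Jak2WT GLUT1/3 WT and dKO groups, and VF WT and VF dKO those of Jak2V617F; in 10 of the 12 panels the Jak2V617F dKO mean lies above the Jak2V617F GLUT1/3 WT mean, Aurka and Ect2 being the exceptions.

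All 4 subunits of the chromosomal passenger complex, which corrects wrong attachments at the centromere and later acts in cytokinesis, rose on dKO in Jak2V617F. In Jak2WT, none of the 4 passed the limma test, and at an unadjusted p under 0.05 there were 2 lower and 0 higher. Birc5 encodes survivin, the subunit that docks the complex on centromeres. Birc5 stood at 26.6 and 29.1 FPKM in the Jak2WT GLUT1/3 WT clones, 24.1 and 26.7 in Jak2WT dKO, 17.7 and 17.6 in Jak2V617F GLUT1/3 WT, and 30.3 and 32.7 in Jak2V617F dKO. The Jak2V617F GLUT1/3 WT clones were the lowest and the Jak2V617F dKO clones the highest of the 8. Birc5 rose by 0.80 ± 0.088 (log2, SE; adjusted p = 0.00121), with an interaction of 0.93 ± 0.13 (adjusted p = 0.0121). Incenp encodes the scaffold and Aurkb the kinase of the complex. The FPKM of Incenp in clones 1 and 3 was 66.2 and 63.9 in Jak2WT GLUT1/3 WT, 46.9 and 60.2 in Jak2WT dKO, 36.3 and 41.1 in Jak2V617F GLUT1/3 WT, and 62.9 and 64.2 in Jak2V617F dKO. For Aurkb, clones 1 and 3 had 39.6 and 41.2 FPKM in Jak2WT GLUT1/3 WT, 31.3 and 35.4 in Jak2WT dKO, 23.8 and 22.3 in Jak2V617F GLUT1/3 WT, and 33.6 and 40.4 in Jak2V617F dKO. In both genes the Jak2V617F GLUT1/3 WT clones lay below the 6 others. Incenp rose by 0.70 ± 0.12 (log2, SE; adjusted p = 0.00642) and Aurkb rose by 0.65 ± 0.11 (log2, SE; adjusted p = 0.00508). Cdca8, which encodes borealin, changed less and rose by 0.28 ± 0.072 (log2, SE; adjusted p = 0.0249). All 4 were lower in Jak2V617F than in Jak2WT among GLUT1/3 WT clones, by log2 differences from -0.78 (Aurkb) to -0.30 (Cdca8), and all 4 interactions were called.

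Among the 5 genes of the spindle assembly checkpoint, 4 were lower in Jak2V617F among GLUT1/3 WT clones, 2 rose on dKO in Jak2V617F and 1 fell on dKO in Jak2WT. Bub1b encodes BUBR1, part of the mitotic checkpoint complex that holds CDC20. Bub1b stood at 51.5 and 52.8 FPKM in the Jak2WT GLUT1/3 WT clones, 37.1 and 41.0 in Jak2WT dKO, 27.0 and 28.0 in Jak2V617F GLUT1/3 WT, and 32.7 and 42.4 in Jak2V617F dKO. Bub1b was lower in Jak2V617F (log2 difference -0.90 ± 0.12 SE, adjusted p = 0.00259) and rose on dKO there by 0.42 ± 0.12 (log2, SE; adjusted p = 0.0378). It was called in 9 of 19 fits. Ttk encodes MPS1, the kinase at the top of the checkpoint, and rose by 0.57 ± 0.13 (log2, SE; adjusted p = 0.0175). Bub1, the kinase that marks kinetochores for checkpoint proteins, differed from these. The FPKM of Bub1 in clones 1 and 3 was 39.5 and 40.0 in Jak2WT GLUT1/3 WT, 23.4 and 26.8 in Jak2WT dKO, 28.7 and 31.4 in Jak2V617F GLUT1/3 WT, and 23.1 and 30.0 in Jak2V617F dKO. Bub1 fell on dKO in Jak2WT (log2 difference -0.65 ± 0.13 SE, adjusted p = 0.0221), and its difference in Jak2V617F was -0.18 ± 0.13 (adjusted p = 0.321). Bub3 and Mad2l1 (MAD2) were lower in Jak2V617F among GLUT1/3 WT clones, with log2 differences of -0.55 ± 0.11 (adjusted p = 0.00917) and -0.52 ± 0.11 (adjusted p = 0.0113), and passed no other test.

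The anaphase-promoting complex cofactors and securin did not pass the test on dKO in Jak2V617F cells. Cdc20, the coactivator that the checkpoint holds back, Ube2c, the E2 enzyme that primes ubiquitin chains, and Pttg1, securin, gave 0 calls of 3 on dKO in Jak2V617F, at 0.096 ± 0.12 (adjusted p = 0.578), -0.12 ± 0.12 (adjusted p = 0.489) and -0.042 ± 0.14 (adjusted p = 0.839). None of the 3 reached an unadjusted p under 0.05 there, and with 13.7% of all genes called higher, 0 of 3 does not set them apart. In Jak2WT, Cdc20 fell (log2 difference -0.47 ± 0.12 SE, adjusted p = 0.0429) and Pttg1 fell (log2 difference -0.57 ± 0.14 SE, adjusted p = 0.0364). For Ube2c, clones 1 and 3 had 43.3 and 48.2 FPKM in Jak2WT GLUT1/3 WT, 45.1 and 43.5 in Jak2WT dKO, 51.6 and 46.8 in Jak2V617F GLUT1/3 WT, and 40.1 and 50.7 in Jak2V617F dKO. The clones of Ube2c overlapped in all 4 comparisons of groups, and it passed no test.

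At the centromere and kinetochore, 4 of 5 genes were lower in Jak2V617F among GLUT1/3 WT clones, 2 fell on dKO in Jak2WT and 1 rose on dKO in Jak2V617F (20%, near the 13.7% of all genes). Ndc80 encodes the kinetochore subunit that grips microtubules. Ndc80 stood at 10.0 and 10.5 FPKM in the Jak2WT GLUT1/3 WT clones, 6.07 and 7.46 in Jak2WT dKO, 7.0 and 7.48 in Jak2V617F GLUT1/3 WT, and 9.41 and 11.6 in Jak2V617F dKO. The dKO clones of Jak2V617F were above both their GLUT1/3 WT clones, and the dKO clones of Jak2WT were below both of theirs. Ndc80 rose by 0.47 ± 0.12 (log2, SE; adjusted p = 0.0257) in Jak2V617F, fell (log2 difference -0.54 ± 0.12 SE, adjusted p = 0.0307) in Jak2WT and had an interaction of 1.01 ± 0.17 (adjusted p = 0.0184). Nuf2, its partner in the complex, gave 0.40 ± 0.13 (adjusted p = 0.0548) on dKO in Jak2V617F, and its only call was a lower level in Jak2V617F than in Jak2WT among GLUT1/3 WT clones. Cenpf, a large kinetochore and nuclear envelope protein, fell on dKO in Jak2WT (log2 difference -0.61 ± 0.12 SE, adjusted p = 0.0205) and was lower in Jak2V617F among GLUT1/3 WT clones (log2 difference -0.73 ± 0.12 SE, adjusted p = 0.00474). Cenpa, the centromeric histone variant, was lower in Jak2V617F among GLUT1/3 WT clones (log2 difference -0.61 ± 0.11 SE, adjusted p = 0.00599). Cenpe, the kinetochore kinesin, passed no test and ranged from 15.2 to 25.7 FPKM over the 8 libraries.

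The 10 spindle motors and microtubule-associated proteins all had a positive fitted dKO difference in Jak2V617F and a negative one in Jak2WT, and 5 and 2 of them passed the test. Kif11, the kinesin that pushes spindle poles apart, had 42.6 FPKM in both Jak2V617F GLUT1/3 WT clones and 50.7 and 59.6 in the dKO clones, and rose by 0.36 ± 0.097 (log2, SE; adjusted p = 0.0287). Kif4, the chromokinesin of chromosome arms and the central spindle, rose by 0.52 ± 0.11 (log2, SE; adjusted p = 0.0112), Tpx2, an activator of Aurora A, rose by 0.35 ± 0.10 (log2, SE; adjusted p = 0.0386), Dlgap5 (HURP) rose by 0.36 ± 0.091 (log2, SE; adjusted p = 0.0239), and Ckap2, a microtubule-binding protein, rose by 0.31 ± 0.075 (log2, SE; adjusted p = 0.02). Kif2c, the depolymerising kinesin MCAK, and Hmmr, a spindle pole protein, were the 2 that fell on dKO in Jak2WT, with log2 differences of -0.40 ± 0.085 (adjusted p = 0.026) and -0.49 ± 0.11 (adjusted p = 0.0293). Tacc3 and Ckap2l were lower in Jak2V617F among GLUT1/3 WT clones, with log2 differences of -0.56 ± 0.089 (adjusted p = 0.0043) and -0.43 ± 0.13 (adjusted p = 0.0391). Nusap1, which bundles spindle microtubules, passed no test; its Jak2V617F dKO clones stood at 33.9 and 48.2 FPKM, on either side of the GLUT1/3 WT clones at 35.8 and 35.5.

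The 7 genes of the central spindle and cytokinesis split. Kif20a, the kinesin that carries the passenger complex to the central spindle, and Kif20b rose on dKO in Jak2V617F. The FPKM of Kif20a in clones 1 and 3 was 22 and 22.1 in Jak2WT GLUT1/3 WT, 16.4 and 16.1 in Jak2WT dKO, 15.1 and 14.5 in Jak2V617F GLUT1/3 WT, and 18.6 and 22.8 in Jak2V617F dKO. Kif20a rose by 0.45 ± 0.10 (log2, SE; adjusted p = 0.0157) and Kif20b rose by 0.52 ± 0.12 (log2, SE; adjusted p = 0.0162); in Jak2WT, Kif20a fell (log2 difference -0.42 ± 0.10 SE, adjusted p = 0.037). Ect2, the exchange factor that activates RhoA at the cleavage plane, moved the other way. For Ect2, clones 1 and 3 had 31.0 and 30.7 FPKM in Jak2WT GLUT1/3 WT, 16.1 and 17.6 in Jak2WT dKO, 19.5 and 22.9 in Jak2V617F GLUT1/3 WT, and 10.6 and 16.2 in Jak2V617F dKO. Its dKO clones lay below the GLUT1/3 WT clones in both backgrounds, and the Jak2WT GLUT1/3 WT clones were the highest of the 8. Ect2 fell on dKO in Jak2V617F (log2 difference -0.65 ± 0.18 SE, adjusted p = 0.0305) and in Jak2WT (log2 difference -0.84 ± 0.18 SE, adjusted p = 0.0255). The first of these calls was lost in 10 of 19 fits. Racgap1, which binds and activates Ect2 in the centralspindlin complex, fell on dKO in Jak2WT (log2 difference -0.44 ± 0.081 SE, adjusted p = 0.0169) and gave 0.25 ± 0.081 (adjusted p = 0.0561) in Jak2V617F. Its centralspindlin partner Kif23 passed no test. Prc1, the bundler of antiparallel microtubules, fell on dKO in Jak2WT (log2 difference -0.47 ± 0.084 SE, adjusted p = 0.0155) and did not pass the test on dKO in Jak2V617F. Anln, the scaffold anillin, was lower in Jak2V617F among GLUT1/3 WT clones (log2 difference -0.58 ± 0.14 SE, adjusted p = 0.0218).

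Of the 5 genes of condensin, topoisomerase and the chromosome periphery, 4 rose on dKO in Jak2V617F and 1 fell. Mki67, which encodes the Ki-67 antigen that coats mitotic chromosomes, had the largest background difference of the 48. Mki67 stood at 114.7 and 108.7 FPKM in the Jak2WT GLUT1/3 WT clones, 58.9 and 82.3 in Jak2WT dKO, 42.9 and 49.7 in Jak2V617F GLUT1/3 WT, and 70.0 and 74.0 in Jak2V617F dKO. Its Jak2WT GLUT1/3 WT clones were apart from the 6 others, at the highest level. Mki67 was lower in Jak2V617F among GLUT1/3 WT clones (log2 difference -1.26 ± 0.15 SE, adjusted p = 0.00184), rose on dKO in Jak2V617F by 0.63 ± 0.15 (log2, SE; adjusted p = 0.0209), fell on dKO in Jak2WT (log2 difference -0.67 ± 0.15 SE, adjusted p = 0.0314) and had the largest interaction of the members, 1.3 ± 0.22 (adjusted p = 0.0177). Smc2 and Smc4 form the core pair of condensin, and their RNAs moved in opposite directions on dKO in Jak2V617F. The FPKM of Smc2 in clones 1 and 3 was 64.1 and 64.2 in Jak2WT GLUT1/3 WT, 60.4 and 62.5 in Jak2WT dKO, 48.4 and 45.8 in Jak2V617F GLUT1/3 WT, and 65.5 and 69.9 in Jak2V617F dKO. For Smc4, clones 1 and 3 had 97.5 and 100 FPKM in Jak2WT GLUT1/3 WT, 74.2 and 77.5 in Jak2WT dKO, 98.4 and 99.3 in Jak2V617F GLUT1/3 WT, and 71.3 and 85.3 in Jak2V617F dKO. Smc2 rose on dKO in Jak2V617F by 0.51 ± 0.076 (log2, SE; adjusted p = 0.00321), while Smc4 fell there (log2 difference -0.34 ± 0.097 SE, adjusted p = 0.0366) and in Jak2WT (log2 difference -0.38 ± 0.097 SE, adjusted p = 0.0443). In Jak2WT, Smc2 gave -0.061 ± 0.076 (adjusted p = 0.625). Between the backgrounds among GLUT1/3 WT clones, Smc4 did not pass the test. Its fall in Jak2V617F was called in 9 of 19 fits. Ncapd2, a condensin I subunit, rose by 0.44 ± 0.11 (log2, SE; adjusted p = 0.0206) in Jak2V617F and fell (log2 difference -0.50 ± 0.11 SE, adjusted p = 0.0267) in Jak2WT. Top2a, the topoisomerase that separates sister DNA, was the most abundant member at 104.8 to 170.4 FPKM and rose by 0.53 ± 0.11 (log2, SE; adjusted p = 0.0129).

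**Figure D4:**
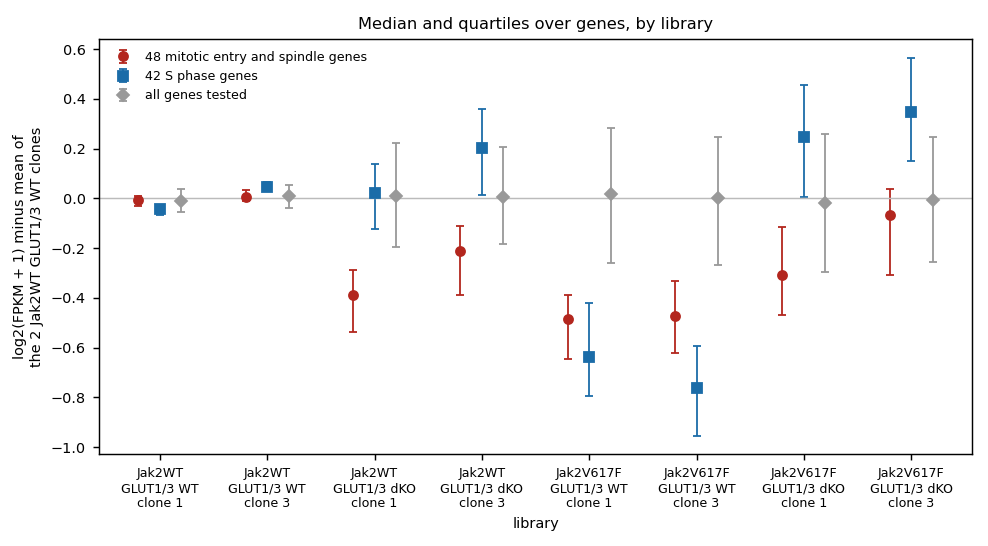
Median with quartiles over genes of log2(FPKM + 1) minus the mean of the 2 Jak2WT GLUT1/3 WT clones, for the 48 mitotic genes, 42 S phase genes and all 11818 genes tested, in each of the 8 libraries. In all 4 dKO libraries the S phase median lies above the mitotic median, and in both Jak2V617F GLUT1/3 WT libraries it lies below.

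The mitotic genes can be set beside S phase genes, which act earlier in the same cycle. Of 42 S phase genes, 40 rose on dKO in Jak2V617F and 2 did not pass the test, with a median log2 difference of 1.03, where the 48 mitotic genes had 0.28. In Jak2WT, 2 fell (4.76%, where 6.06% of all genes were called lower) and 40 did not pass, with a median of 0.13, where the mitotic genes had -0.30. Relative to the Jak2WT GLUT1/3 WT mean, the library medians of the mitotic genes were -0.39 and -0.21 in Jak2WT dKO clones 1 and 3, while those of the S phase genes were 0.023 and 0.20. In Jak2V617F dKO the medians were -0.31 and -0.067 for the mitotic genes and 0.25 and 0.35 for the S phase genes. In all 4 dKO libraries the S phase median was thus the higher one. In Jak2V617F GLUT1/3 WT both lists were low, at -0.49 and -0.47 for the mitotic genes and at -0.64 and -0.76 for the S phase genes. The difference between the lists is a description and was not tested. Mcm4, a subunit of the replicative helicase, stood at 25.7 and 21.6 FPKM in Jak2V617F GLUT1/3 WT and 75.9 and 81.1 in dKO, and rose by 1.70 ± 0.11 (log2, SE; adjusted p = 0.00036).

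Other genes of mitosis were measured in 4 further lists, 99 genes in all. On dKO in Jak2V617F, 48 of the 99 were called higher and 5 lower and 46 did not pass (median 0.33), which is 48.5% and 5.05% against 13.7% and 16.2% of all genes. In Jak2WT 13 were lower (13.1% against 6.06%) and 86 did not pass (median -0.15). Among GLUT1/3 WT clones, 52 were lower in Jak2V617F and 3 higher (52.5% and 3.03%, against 14.9% and 15.3% of all genes). Of 53 further spindle, kinetochore and cytokinesis genes, 33 rose on dKO in Jak2V617F and 20 did not pass. Mis18a, which takes part in the loading of the centromeric histone, rose by 1.00 ± 0.078 (log2, SE; adjusted p = 0.000443). The 17 genes of the anaphase-promoting complex and its inhibitors had 4 called higher, 2 lower, 11 of 17 fitted differences negative and a median of -0.12. Of 12 genes of the switch around CDK1, 5 rose (41.7%) and 1 fell (8.33%, below the 16.2% of all genes). Pkmyt1 and Wee1, the kinases that hold CDK1 inactive, rose by 1.20 ± 0.16 (log2, SE; adjusted p = 0.00199) and by 0.59 ± 0.079 (log2, SE; adjusted p = 0.00232), and Cdc25a, a phosphatase that releases it, rose by 1.00 ± 0.12 (log2, SE; adjusted p = 0.00144). Cdc25c, another such phosphatase, fell on dKO in Jak2WT (log2 difference -0.72 ± 0.14 SE, adjusted p = 0.0187). Of 13 genes of MuvB, B-MYB, NF-Y and the pocket proteins, 7 rose on dKO in Jak2V617F and 6 did not pass. Mybl2, which encodes B-MYB, rose most. Its level was 12 and 9.40 FPKM in Jak2V617F GLUT1/3 WT and 31.7 in both dKO clones, and it rose by 1.49 ± 0.12 (log2, SE; adjusted p = 0.000525).

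Within both dKO groups the mitotic genes differed between the clones in a shared direction. Clone 3 was above clone 1 for 43 of 48 members in Jak2WT dKO and for 44 in Jak2V617F dKO, with median log2 differences of 0.14 and 0.19, where the medians of all genes were -0.011 and 0.0087. Of all genes, 46.8% and 51.6% were higher in clone 3 in these 2 groups. In the GLUT1/3 WT groups of Jak2WT and Jak2V617F, clone 3 was above clone 1 for 30 and 28 members, with medians of 0.012 and 0.017. There 56.2% and 38.9% of all genes were higher in clone 3, with medians of 0.022 and -0.053. The widest such gap was 0.62, for Ccnb1 in Jak2V617F dKO. The clones of different groups come from separate cells, and a clone number did not pair them. With 2 clones a group, the dKO differences of the members carry this spread.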

How the data were processed

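RNA from 8 clones of 32D cells, 2 in each of 4 groups set from the labels, had been sequenced in pairs of reads. The deposited values are FPKM per gene. To make them the authors trimmed with fastp 1.0.1, aligned to mm39 with HISAT2 2.2.1 and counted with featureCounts 2.0.6, per the processing notes, and the strand setting and the library total behind FPKM are not given in the sources used here. FPKM times gene length was a whole multiple of 1 step per library (tolerance 0.01 of the step), so reads per gene were recovered for an alternative with voom. Genes that reached FPKM of 1 in 2 or more libraries entered a limma fit (version 3.58.1, R 4.3.3) of log2(FPKM + 1), so differences of low genes are understated, with one mean per group, a trend of the spread on the level, and Benjamini-Hochberg adjustment over all genes (threshold 0.05). Promoter windows came from RefSeq (GRCm38.p6). Tables and figures were made with Python 3.11.15 and matplotlib 3.10.9.

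The members and the lists were chosen with earlier results of these data known. All 48 members could be named, with Slc2a1 and Slc2a3, and from each other list up to 3 genes a direction, those with the largest difference among genes past the threshold whose clones did not overlap between groups. Alternatives were another pseudocount, 2 other filters, 2 scalings, voom, the spread without its trend or robust, a fit of the compared groups alone, the clone number as a block, and leaving out each library.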

Additional observations from a re-analysis of the deposited data

Results flagged for a closer look

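The dKO difference was more positive in Jak2V617F than in Jak2WT for 24 members (limma interaction, adjusted p under 0.05 over all genes). Each value here is the log2 dKO difference in Jak2V617F minus that in Jak2WT. Among entry genes it was 0.889 for Ccnf, 0.841 for Plk1 and 0.856 for Foxm1, and in the checkpoint 0.833 for Bub1b and 0.856 for Ttk. In the chromosomal passenger complex it was 0.926 for Aurkb, 0.928 for Birc5, 0.531 for Cdca8 and 0.992 for Incenp. At the kinetochore Cenpf gave 0.881 and Ndc80 1.01. On the spindle the values were 0.677 for Kif11, 0.663 for Kif2c, 0.798 for Kif4, 0.633 for Hmmr, 0.605 for Dlgap5 and 0.72 for Ckap2l. For the central spindle, Kif20a gave 0.868, Kif20b 0.714 and Racgap1 0.686. Chromosome structure genes gave 0.575 for Smc2, 0.943 for Ncapd2, 0.769 for Top2a and 1.3 for Mki67. For Ndc80, Ncapd2, Kif20a and Mki67 the dKO difference itself passed the test in both backgrounds, upwards in Jak2V617F and downwards in Jak2WT. For Plk1, Cenpf, Kif2c, Hmmr and Racgap1 it passed in Jak2WT and not in Jak2V617F. Without either Jak2WT GLUT1/3 WT clone, 0 of the 24 were called, and the calls over all genes fell from 558 positive and 698 negative to 27 and 41 without clone 1 and to 2 and 3 without clone 3.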

How the results depend on the processing

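With libraries scaled to the same total, the members' median log2 difference was 0.3635 for dKO in Jak2V617F (0 called lower), -0.3957 for dKO in Jak2WT, -0.6137 between backgrounds among GLUT1/3 WT clones and 0.7658 for the interaction. That scaling turned the sign of the dKO difference in Jak2WT of Ccnf (-0.04703) and Cdk1 (-0.0932) and that in Jak2V617F of Pttg1 (0.04716). Cdk1 in Jak2WT was also negative by the median ratio (-0.00562) and voom (-0.0004629). Without an expression filter, 0 members were called lower on dKO in Jak2V617F, 4 lower in Jak2WT, 3 higher in Jak2V617F among dKO clones and 5 by the interaction. That fit held 25788 genes, and calls over all genes fell too. They went from 1614 higher and 1919 lower to 1244 and 1354 on dKO in Jak2V617F, and from 901 and 716 to 402 and 312 in Jak2WT. Among dKO clones they went from 842 and 1177 to 633 and 714. For the interaction they went from 558 and 698 to 165 and 181. Why calls fell was not tested. Fits of the 2 compared groups alone, with fewer clones, called 9 higher and 0 lower on dKO in Jak2V617F and 0 higher between dKO clones. Over all genes these fits called 764 higher and 853 lower on dKO in Jak2V617F, and 436 and 592 between dKO clones. Between dKO clones, median-ratio scaling called 8 members higher, where calls over all genes were 965 higher and 1121 lower. There voom called 8 members higher and 1 lower, with 1236 and 1422 over all genes.

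Leaving out one library, so that its group's lone clone is assumed to vary like the others, gave 7 to 22 members higher and 0 to 3 lower on dKO in Jak2V617F. The ranges were 0 to 21 lower in Jak2WT (median -0.3899 to -0.2126), 18 to 42 lower between backgrounds among GLUT1/3 WT clones, 1 to 5 higher and 0 to 4 lower among dKO clones (median 0.002153 to 0.1947), and 0 to 27 positive interactions (median 0.5045 to 0.6927). Over all alternatives the dKO difference took both signs for 14 members in Jak2V617F and 6 in Jak2WT. Among those whose log2 difference in that comparison is printed in the text, leaving out a library turned the sign in Jak2V617F for Ccna2 (-0.07202 to 0.2053), Ccnb1 (-0.4861 to 0.1314), Cdc20 (-0.06007 to 0.2528), Plk1 (-0.02826 to 0.2426), Pttg1 (-0.2012 to 0.1162) and Ube2c (-0.2867 to 0.0429), and in Jak2WT for Ccnf (-0.007333 to 0.09853) and Cdk1 (-0.06856 to 0.07674). The cause was not tested.

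Clone numbers did not pair the samples, since deviations of same-numbered clones correlated between -0.25 and 0.15. With the number as a replicate block, 22 members were higher and 2 lower on dKO in Jak2V617F, 15 lower in Jak2WT and 23 interactions were called. Members had at least 640 reads in a library, and each group had 2 clones.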

Other observations

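The anaphase-promoting complex itself and the cohesin cycle were measured in lists of 17 genes each. On dKO in Jak2V617F, 4 of the 17 genes of the anaphase-promoting complex and its inhibitors rose and 2 fell, which is 23.5% and 11.8% against the 13.7% and 16.2% of all genes tested, and the median log2 difference was -0.12. Fbxo5, which encodes the inhibitor EMI1, stood at 25.4 and 27.6 FPKM in the GLUT1/3 WT clones and 50.1 and 51.5 in the dKO clones, a log2 difference of 0.91 (limma, adjusted p = 0.000695). The subunit Anapc7 fell, with a log2 difference of -0.45 (adjusted p = 0.00776), and Anapc11 rose by 0.83 (adjusted p = 0.00452). Of 17 other condensin and cohesin genes, 6 rose (35.3%) and 2 fell (11.8%), with a median of 0.16. Cdca5 (sororin, which guards cohesion in G2) rose by 1.04 (adjusted p = 0.000583) and Espl1 (separase, which cuts cohesin) by 0.82 (adjusted p = 0.00477). Wapl, which releases cohesin from chromosomes, fell, with a log2 difference of -0.48 (adjusted p = 0.00321).

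Members overlap genes on the opposite strand in 19 pairs, whose reads cannot be told apart without strand. In 8 pairs the partner reached 100 reads in a library. These were Ccna2 with Exosc9, Cdc20 with Elovl1, Cdca8 with 9930104L06Rik, Kif20a with Cdc23, Kif4 with Pdzd11, Tacc3 with Tmem129, Prc1 with Rccd1 and Nusap1 with Oip5. Among these 8 partners the highest level in a library was 30.9 FPKM, for Elovl1, whose overlap with Cdc20 is 53 bases. The other 11 partners stayed under 100 reads. The processed pseudogenes of Ccnb1 and Ccnb2 reached 1.84 and 2.90 FPKM.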
